A study of Mus musculus with 4 samples.

Results

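The transcripts of 10 genes of the integrated stress response were followed in mouse pachytene spermatocytes cultured with or without AZ20, an inhibitor of the ATR kinase. The genes were chosen by symbol from knowledge of the pathway, with earlier results of these data known. All 10 were found among the 23420 gene symbols of the deposited table. They are the 4 kinases that phosphorylate the translation factor eIF2α (Eif2ak1, Eif2ak2, Eif2ak3 and Eif2ak4), eIF2α itself (Eif2s1), the downstream regulators Atf4, Ddit3 and Trib3, and the phosphatase subunits Ppp1r15a and Ppp1r15b. Ddit3 and Eif2s1 were among the most abundant transcripts of these cells, Eif2ak1 carried most of the kinase transcripts, and Trib3 and Eif2ak3 had 0 reads and 1 read in all 4 libraries together. None of the 8 genes that could be tested was called changed by AZ20.

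The integrated stress response is a shared way for cells to slow protein synthesis under stress. Each of its kinases senses a different stress, and all 4 phosphorylate the same serine of eIF2α, which blocks the guanine exchange factor eIF2B and lowers translation initiation. Translation of a few mRNAs, that of Atf4 among them, rises at the same time, and the ATF4 protein activates genes for amino acid supply and for the pathway's own feedback. The control acts largely on proteins, so transcript levels show how much of each component's mRNA was present and not the state of the pathway.

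Wild-type C57BL/6 mice of 23 weeks of age were the source of the cells, which were isolated by FACS with a DNA dye. DMSO was given to the control group (Ctrl, 2 libraries) and 10 μM AZ20 to the treated group (AZ20, 2 libraries), for 24 h at a temperature given as 34 °C in the labels and 32 °C in the methods. All cells had therefore been sorted and kept in culture, and no uncultured cells were among the libraries. Each library came from 15000 cells, and according to the methods the cells of each mouse were split between the conditions. Libraries of the same replicate number were therefore taken as a pair, although neither the labels nor the methods state that they share a mouse. The values are TPM, transcript levels scaled for gene length and library depth. The reads behind them were recovered as whole numbers and totalled 13922654 and 15799526 for the Ctrl libraries and 20187328 and 18482645 for the AZ20 libraries. Because these are bulk libraries, fewer cells of a type and less RNA per cell cannot be told apart.

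The summed level of 12 pachytene spermatocyte markers was between 12118 and 12387 TPM, and all 12 were above the low-value filter. Sertoli cell markers summed to 6.85 to 12.8 TPM over 10 genes with Sox9, Wt1 and Fshr at 0 in every library, and Leydig cell markers to 0.866 to 2.31 TPM with 7 of 8 genes at 0. Macrophage markers summed to 0.674 to 1.91 TPM over 8 genes with C1qa at 0, and peritubular myoid cell markers to 2.18 to 4.60 TPM over 5 genes with Des at 0. Spermatogonial markers summed to 8.26 to 21.2 TPM over 8 genes, with Stra8, Dmrt1 and Sohlh1 at 0. Round spermatid markers, all 8 of which were detected, differed more between libraries: their sum was 369 and 153 TPM in Ctrl and 777 and 256 TPM in AZ20, higher in the replicate 1 library of each condition and, in both replicate pairs, higher in AZ20 than in Ctrl. None of these 8 markers was called changed, and the part of round spermatid transcripts in the differences between the conditions was not tested.

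The conditions were compared by limma, fitted to log2(TPM + 1) of the 10316 genes with a mean above 1 TPM in either group. Calls needed a Benjamini-Hochberg adjusted p under 0.05 and at least a 2-fold change of TPM + 1, a scale that understates changes of low genes. Of all tested genes 235 were called higher in AZ20 (2.28%) and 5 lower (0.0485%). Of the 8 tested members 0 were called by limma, by the same fit with the replicate number as a block, or by voom on the recovered reads. An unadjusted p under 0.05 was reached by 0 of 8 members, with limma or with voom, against 9.16% of all tested genes with limma. The members all lie on autosomes, whereas the shares over all tested genes include X- and Y-linked genes. The paper reports strong upregulation of X- and Y-linked genes by AZ20 and few changed genes on autosomes, so these shares are an unlike background. An exact permutation test of a single gene cannot reach 0.05 with 2 libraries in each group.

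**Figure D1:**
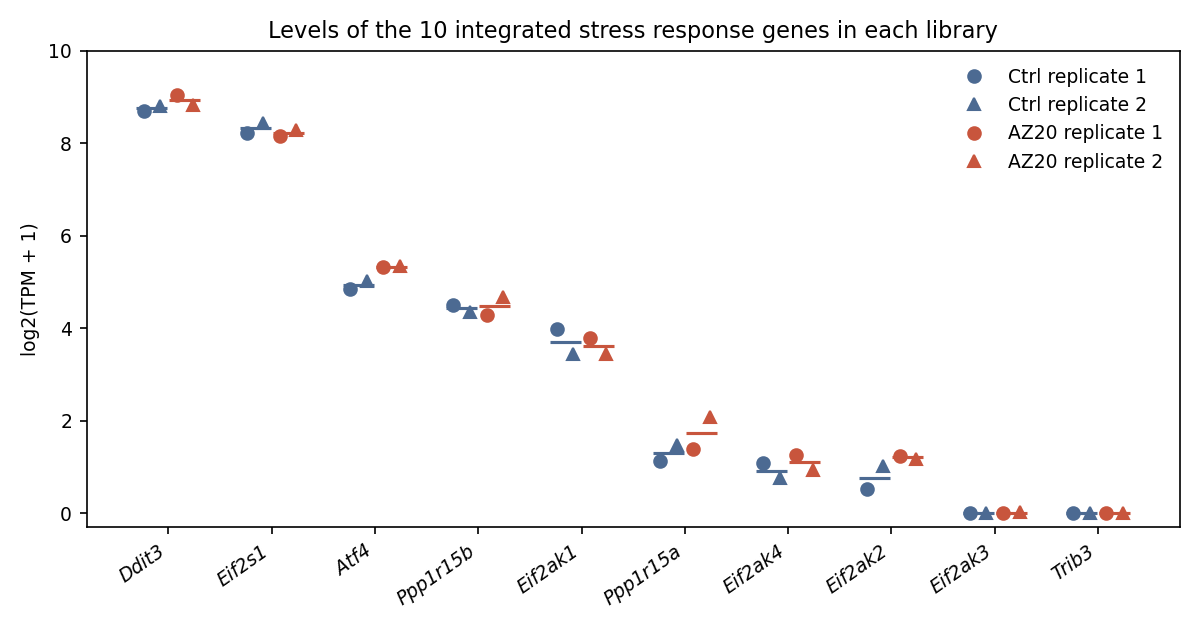
Levels of the 10 genes in each library as log2(TPM + 1), with Ctrl in blue and AZ20 in red, circles for replicate 1, triangles for replicate 2 and a line at the mean of each group. Genes are ordered by their mean, from Ddit3 at 417 to 524 TPM to Trib3 at 0, and for most genes the Ctrl and AZ20 points lie together.

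Among the kinases, Eif2ak1, which encodes the heme-regulated inhibitor HRI, had the highest transcript level by far. HRI is activated when heme is scarce and by mitochondrial stress. Its transcript (chromosome 5, 143817792 to 143902717, GRCm38) was at 14.9 and 9.85 TPM in Ctrl and at 12.9 and 9.84 TPM in AZ20. The level was higher in the replicate 1 library of both conditions, where the summed round spermatid markers were also higher. That sum was higher in AZ20 in both pairs, whereas Eif2ak1 was not higher in AZ20 in either. The part of these markers was not tested. Between the conditions the ranges overlapped. Means (± SD, n = 2) were 12.4 ± 3.56 TPM for Ctrl and 11.4 ± 2.16 TPM for AZ20. The fitted log2 change was -0.10 ± 0.28 (SE) with a limma adjusted p of 0.960. It was 0.18 without Ctrl replicate 1 and 0.08 without AZ20 replicate 2, so its sign rested on those libraries. Exons of Eif2ak1 share 487 bases with Aimp2 and 172 bases with Ankrd61 on the other strand, and since the library kit does not mark strand, reads there cannot be told apart.

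Eif2ak4 encodes GCN2, the kinase that senses uncharged tRNA when amino acids run short. The transcript (chromosome 2, 118388583 to 118475234) lay near 1 TPM, with 1.11 and 0.694 TPM in Ctrl and 1.39 and 0.929 TPM in AZ20. These values rest on 59 and 42 reads in Ctrl and 106 and 64 reads in AZ20. In each replicate pair the AZ20 library was slightly above its Ctrl library, by 0.18 and 0.19 on the log2 scale, while the 2 groups overlapped. Eif2ak4 passed the filter only through its AZ20 mean of 1.16 TPM, since the Ctrl mean was 0.904 TPM. The fitted change was 0.18 ± 0.34 (SE; limma adjusted p = 0.933), and -0.15 after quantile normalization.

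Eif2ak2 encodes PKR, the kinase that is activated by double-stranded RNA. Its transcript (chromosome 17, 78850504 to 78882572) was at 0.435 and 1.02 TPM in Ctrl, from 19 and 51 reads, and at 1.38 and 1.25 TPM in AZ20, from 87 and 71 reads. Both AZ20 libraries were above both Ctrl libraries, and the low value of Ctrl replicate 1 made most of the distance. The fitted change of 0.44 ± 0.34 (SE) did not pass the test (limma adjusted p = 0.803), with a 95% interval of -0.37 to 1.25. Without Ctrl replicate 1 the change was 0.20, and with a pseudocount of 0.01 it was 0.97. Eif2ak2 too passed the filter only through AZ20, with a mean of 1.32 TPM against 0.729 TPM in Ctrl, so that a higher value in AZ20 was part of how it came to be tested. An exon stretch of 174 bases is shared with Gm26637 on the other strand.

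The fourth kinase, PERK, which sits in the membrane of the endoplasmic reticulum and responds to unfolded proteins there, is encoded by Eif2ak3 (chromosome 6, 70844484 to 70905241). Its transcript was at 0 reads in both Ctrl libraries and in AZ20 replicate 1, and at 1 read (0.0169 TPM) in AZ20 replicate 2. A count of 0 allows up to 3 reads, which would have been 0.0661 and 0.0578 TPM in the Ctrl libraries and 0.0459 TPM in AZ20 replicate 1 at the gene length of 4496 bases. These limits cover counting error only. Eif2ak3 was below the filter and was not tested, and any difference between the conditions was not detectable at this depth.

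**Figure D2:**
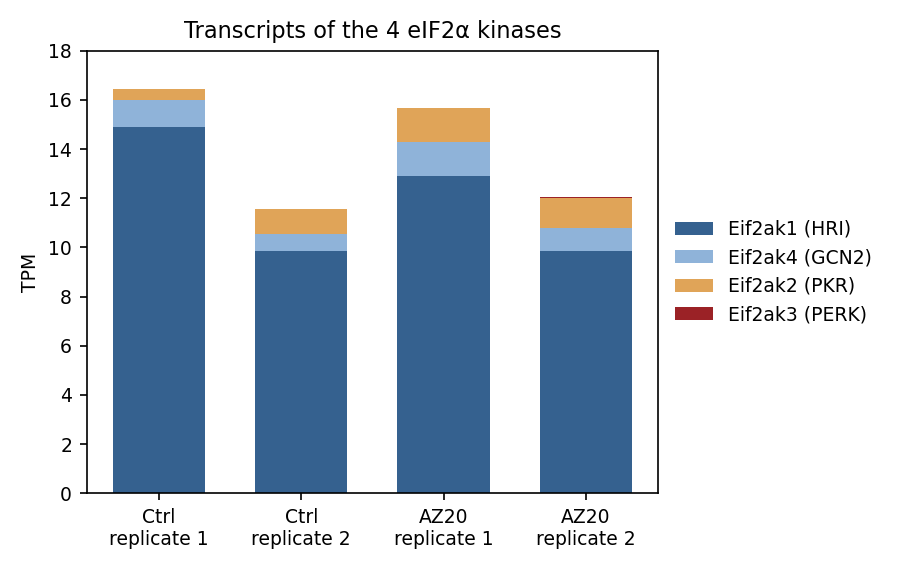
TPM of the 4 eIF2α kinases stacked for each library, with each color standing for 1 gene and the height of the bar for their sum. The sums were 16.4 and 11.6 TPM in Ctrl and 15.7 and 12.0 TPM in AZ20, and Eif2ak1 fills most of every bar while Eif2ak3 is barely visible in AZ20 replicate 2 and missing from the others.

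The 4 kinases together summed to 16.4 and 11.6 TPM in Ctrl and to 15.7 and 12.0 TPM in AZ20, so the difference between replicates exceeded that between conditions. Eif2ak1 made up 90.6% and 85.2% of the sum in Ctrl and 82.3% and 81.7% in AZ20. Both AZ20 shares were below both Ctrl shares, and the Ctrl libraries differed from each other by more than AZ20 replicate 1 differed from Ctrl replicate 2. Eif2ak2 accounted for 2.65% and 8.84% in Ctrl and 8.83% and 10.4% in AZ20, and Eif2ak4 for 6.78% and 6.0% in Ctrl and 8.87% and 7.72% in AZ20.

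Eif2s1 encodes eIF2α, the subunit that all 4 kinases phosphorylate. The phosphorylated serine lies in exon 2 of 8 of the coding transcript in GENCODE M21 (GRCm38), at codon 52 counted from the initiator methionine and thus residue 51 of the protein without it. The surrounding coding bases are chr12:78866659-78866703 on the plus strand, with the serine codon (78866680 to 78866682) in capitals. They are shown because they hold the single residue on which the whole pathway acts.
Eif2s1: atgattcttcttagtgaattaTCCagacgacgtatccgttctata
The Eif2s1 transcript (chromosome 12, 78862072 to 78887010) was at 296 and 344 TPM in Ctrl and 284 and 311 TPM in AZ20. In every library between 96.9% and 97.4% of all genes were lower. The ranges of the conditions overlapped, with means (± SD, n = 2) of 320.4 ± 34.1 TPM for Ctrl and 297 ± 19.3 TPM for AZ20. Counted on 9423 to 13003 reads, the fitted change was -0.10 ± 0.16 (SE; limma adjusted p = 0.915) with a 95% interval of -0.48 to 0.27. A 2-fold change in either direction lay outside that interval.

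eIF2α works in a complex with the β subunit, encoded by Eif2s2, and a γ subunit, encoded by Eif2s3x on the X chromosome and by its copy Eif2s3y on the Y chromosome. Eif2s2 was at 1035 and 869 TPM in Ctrl and 724 and 896 TPM in AZ20, a change of -0.23 ± 0.17 (SE; limma adjusted p = 0.779) with overlapping groups. Eif2s2 was thus 2.52 to 3.49 times as high as Eif2s1 in the 4 libraries. The γ genes stood apart, since Eif2s3y was at 2.35 and 0.196 TPM in Ctrl, from 42 and 4 reads, and at 33.6 and 30.8 TPM in AZ20, from 864 and 715 reads. Eif2s3y rose by 4.05 ± 0.46 (SE) on the log2 scale (limma adjusted p = 0.00381). Its adjusted p was 0.0541 with a pseudocount of 0.1, 0.0622 without the filter, 0.486 without AZ20 replicate 1 and 0.461 without AZ20 replicate 2, in all of which it was higher in AZ20 but not called. Eif2s3x, in contrast, was at 0 reads in Ctrl and at 1 and 7 reads in AZ20 and was not tested. Reads that align equally to Eif2s3x and Eif2s3y were discarded by the authors, so the levels of these close copies are uncertain. The level of γ transcripts, summed over both genes, was 2.35 and 0.196 TPM in Ctrl and 33.6 and 30.9 TPM in AZ20, and stayed below that of Eif2s1 in all 4 libraries.

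Atf4 encodes the transcription factor whose translation rises when eIF2α is phosphorylated. The transcript (chromosome 15, 80255184 to 80257545) was at 28.0 and 31.7 TPM in Ctrl and at 38.8 and 40.0 TPM in AZ20. Both AZ20 libraries were above both Ctrl libraries, and the pairs differed by 0.46 and 0.33 on the log2 scale. Means (± SD, n = 2) were 29.8 ± 2.56 TPM for Ctrl and 39.4 ± 0.842 TPM for AZ20, 1.32 times as high. This was the smallest adjusted p of the 8 members and still far from the threshold, with a log2 change of 0.39 ± 0.19 (SE; limma adjusted p = 0.655) and a 95% interval of -0.07 to 0.85. Over all alternatives the change lay between 0.26 and 0.48 with adjusted p between 0.561 and 0.905.

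Ddit3 encodes CHOP, a transcription factor induced by ATF4 and known for its part in cell death under prolonged stress of the endoplasmic reticulum. Its transcript (chromosome 10, 127290793 to 127296291) was the highest of the 10, at 417 and 446 TPM in Ctrl and 524 and 453 TPM in AZ20. Between 97.8% and 98.2% of all genes were lower. Ddit3 was thus 14.9 and 14.1 times as high as Atf4 in Ctrl and 13.5 and 11.3 times as high in AZ20. The 2 groups did not overlap, but AZ20 replicate 2 was only slightly above Ctrl replicate 2, and the pairs differed by 0.33 and 0.02 on the log2 scale. With a change of 0.18 ± 0.15 (SE; limma adjusted p = 0.827) and a 95% interval of -0.18 to 0.53, Ddit3 did not pass the test. AZ20 replicate 1, where Ddit3 was highest, also had the highest sum of round spermatid markers, 777 TPM. Like Ddit3, that sum was higher in AZ20 in both pairs. Within Ctrl the order was opposite: Ddit3 was higher in replicate 2, and the marker sum in replicate 1, at 369 against 153 TPM. The part of these markers in the Ddit3 level was not tested. Ddit3 shares 68 exonic bases with Mars, the methionyl-tRNA synthetase gene on the other strand, and 13 with Gm4189. Mars itself, given here because of that overlap and not by the rule for named genes, was at 28.5 and 24.6 TPM in Ctrl and 15.2 and 16.1 TPM in AZ20, far below Ddit3.

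Trib3 encodes a pseudokinase that is a common target of ATF4 and CHOP and restrains ATF4 in return. No read fell on Trib3 (chromosome 2, 152337425 to 152344060) in any library. At the annotated length of 2026 bases the 3 reads that a count of 0 allows would have been 0.147 and 0.128 TPM in Ctrl and 0.102 and 0.113 TPM in AZ20. The high Ddit3 level and the absence of Trib3 reads therefore stood side by side in the same 4 libraries. Of the 38 ATF4 targets, listed from knowledge of the pathway with earlier results of these data known, 26 were above the low-value filter. Slc3a2 was among them, at 108 and 94.5 TPM in Ctrl, and the other 12 targets were below the filter.

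The bases before the start sites of Atf4, Ddit3, Trib3 and Ppp1r15a are shown because these genes are regulated by transcription in the response and spanned, in these cells, the range from the highest level to 0. The sequences are RefSeq's (GRCm38.p6), each 250 bases up to the start of the gene, read 5′ to 3′ on the strand of the gene. Capitals mark every match to a CCAAT box (CCAAT, or ATTGG on the other strand), which the factor NF-Y binds, and to the cAMP response element (TGACGTCA), which ATF and CREB proteins bind. Both strands were also searched for the C/EBP-ATF response element (TGATGCAA, and TGATGNAA as a looser form) and for the endoplasmic reticulum stress element, which contains a CCAAT box.
Atf4 (chr15:80254934-80255183, plus strand): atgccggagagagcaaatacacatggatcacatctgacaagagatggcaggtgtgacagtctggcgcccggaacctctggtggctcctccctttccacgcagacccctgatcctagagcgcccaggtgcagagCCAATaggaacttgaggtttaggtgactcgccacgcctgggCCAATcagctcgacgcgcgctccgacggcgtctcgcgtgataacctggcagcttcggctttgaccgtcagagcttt
Ddit3 (chr10:127290543-127290792, plus strand): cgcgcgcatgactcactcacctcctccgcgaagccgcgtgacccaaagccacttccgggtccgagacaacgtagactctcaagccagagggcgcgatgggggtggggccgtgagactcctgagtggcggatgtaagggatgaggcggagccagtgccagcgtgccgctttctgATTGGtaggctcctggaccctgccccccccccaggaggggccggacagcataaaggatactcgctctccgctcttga
Trib3 (chr2:152344061-152344310, minus strand): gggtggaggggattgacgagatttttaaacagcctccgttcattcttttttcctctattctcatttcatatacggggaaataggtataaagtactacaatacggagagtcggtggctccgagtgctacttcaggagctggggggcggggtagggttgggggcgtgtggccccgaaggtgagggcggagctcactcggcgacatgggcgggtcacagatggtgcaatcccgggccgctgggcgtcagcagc
Ppp1r15a (chr7:45526269-45526518, minus strand): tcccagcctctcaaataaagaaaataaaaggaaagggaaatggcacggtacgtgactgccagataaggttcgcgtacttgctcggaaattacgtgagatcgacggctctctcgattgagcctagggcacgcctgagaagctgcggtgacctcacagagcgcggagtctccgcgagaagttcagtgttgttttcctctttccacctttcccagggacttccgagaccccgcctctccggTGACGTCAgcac
In these windows Atf4 held 2 CCAAT boxes, at 117 to 113 and 76 to 72 bases before the start, and Ddit3 held 1 on the other strand at 77 to 73 bases. Ppp1r15a held the only cAMP response element, at 12 to 5 bases before its start. The Trib3 window held none of the 5 motifs. Bases farther upstream or within the genes were not searched, so elements there would have been missed. Of the 32851 promoters in RefSeq's table, 33.8% hold a CCAAT box, 1.55% a cAMP response element, 0.791% the C/EBP-ATF element, 3.45% its looser form and 0.113% the endoplasmic reticulum stress element. A promoter was listed for 9 of the 10 genes. Of those not printed, Eif2ak3 held 6 CCAAT boxes, Eif2ak1 held 1, and Eif2ak2, Eif2ak4 and Eif2s1 held none of the motifs. The Eif2ak3 window ends at 70844514, past the gene start of 70844484 given above, so its last box lies within the gene by that start. The Eif2ak4 windows also end past the gene start given above.

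Ppp1r15a and Ppp1r15b close the loop: each encodes a subunit that brings protein phosphatase 1 to eIF2α to remove the phosphate. Ppp1r15b, which encodes CReP, is the constitutive form, and Ppp1r15a, which encodes GADD34, is the form that stress induces. Ppp1r15b (chromosome 1, 133131166 to 133139800) was at 21.9 and 19.6 TPM in Ctrl and 18.6 and 24.7 TPM in AZ20. The pairs moved in opposite directions, by -0.22 and 0.32 on the log2 scale, and the fitted change was 0.05 ± 0.23 (SE; limma adjusted p = 0.976). Ppp1r15b exons share 640 bases with Gm26616 on the other strand.

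Ppp1r15a (chromosome 7, 45522917 to 45526268) was much lower, at 1.19 and 1.78 TPM in Ctrl and 1.62 and 3.27 TPM in AZ20, from 28 to 100 reads. The AZ20 library was the higher in both pairs, by 0.26 and 0.62 on the log2 scale, but AZ20 replicate 1 was below Ctrl replicate 2. The fitted change was 0.44 ± 0.36 (SE; limma adjusted p = 0.816) with a 95% interval of -0.41 to 1.29. AZ20 replicate 2 decided its size, since the change was 0.09 without that library and 0.79 without AZ20 replicate 1. The ratio of Ppp1r15b to Ppp1r15a levels was 18.4 and 10.98 in Ctrl and 11.5 and 7.56 in AZ20, so the constitutive form exceeded the inducible form in every library. These ratios overlapped between the conditions. An exonic stretch of 12 bases is shared between Ppp1r15a and Tulp2.

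The order of the levels was the same in all 4 libraries for the upper part of the group: Ddit3, Eif2s1, Atf4, Ppp1r15b, Eif2ak1 and then the low genes. The lowest value of each of these 5 exceeded the highest value of the next. At the lower end, Ppp1r15a was above Eif2ak4 in each library, although their ranges over libraries overlapped. Eif2ak4 and Eif2ak2 could not be ordered, since Eif2ak4 was the higher in both replicate 1 libraries and Eif2ak2 in both replicate 2 libraries. Eif2ak3 and Trib3 were at or next to 0.

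**Figure D3:**
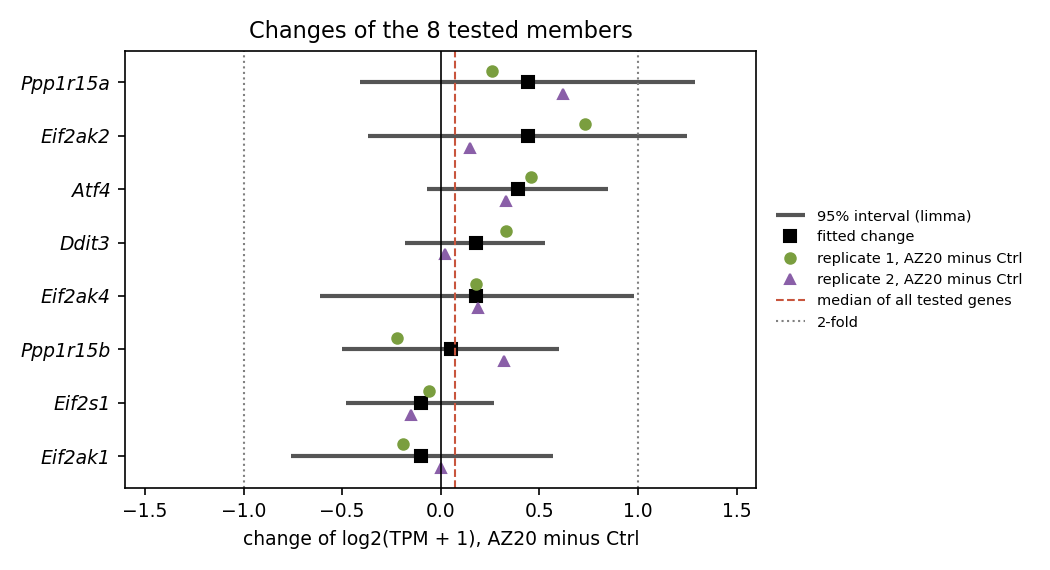
Change of log2(TPM + 1), AZ20 minus Ctrl, for the 8 tested genes, with the fitted value as a square, its 95% interval from limma as a bar and each replicate pair as a circle or triangle. Every interval crosses 0, the dashed line marks the median of all tested genes at 0.07, and only the intervals of Ppp1r15a and Eif2ak2 reach past the dotted 2-fold line.

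Of the 8 tested members 6 had a positive fitted change and 2 a negative one, with a median of 0.18 against 0.07 over all 10316 tested genes. Eif2ak2 and Eif2ak4, both among the 6, passed the filter only through AZ20. Their positive change was thus part of how they came to be tested. The 2 libraries of AZ20 lay above both Ctrl libraries for 3 of the 8, Eif2ak2, Atf4 and Ddit3, against 26.4% of all tested genes, X- and Y-linked ones included. For 0 of the 8 they lay below both, against 11.7% of all tested genes. For 6 of the 8 the 95% interval excluded a 2-fold change in either direction on the log2(TPM + 1) scale, the exceptions being Eif2ak2 and Ppp1r15a with upper bounds of 1.25 and 1.29. The interval of Eif2ak4 came close, with an upper bound of 0.98. Because this scale understates changes of genes near 1 TPM, a 2-fold change of the Eif2ak4 TPM itself was not excluded.

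The genes whose pattern over the 4 libraries was nearest to that of Atf4, by Euclidean distance of centred log2(TPM + 1), were Fam175a, Med17 and Eef1e1, at distances of 0.0297, 0.0323 and 0.0447. Fam175a encodes Abraxas, a scaffold of a BRCA1 complex, and was at 94.5 and 104 TPM in Ctrl and 127 and 130.1 TPM in AZ20. Med17, a Mediator subunit, was at 8.996 and 10.03 TPM in Ctrl and 12.9 and 13.1 TPM in AZ20. Eef1e1, a component of the multi-tRNA synthetase complex, was at 216 and 235 TPM in Ctrl and 285 and 299 TPM in AZ20. None of the 3 was called.

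Beyond these 10 genes, 83 others of the pathway were grouped in 6 lists by role, and 59 of them could be tested. Of these 59, Eif2s3y was called higher and Slc3a2 lower. The lists of eIF2 and eIF2B subunits with their partners (10 tested of 11), of kinase regulators (13 of 13) and of phosphatase partners (5 of 5) had medians of 0.02, 0.02 and -0.06, close to the 0.07 of all genes. Eif5, the GTPase-activating partner of eIF2, was at 269 and 257 TPM in Ctrl and 324 and 381 TPM in AZ20 (log2 change 0.41; limma adjusted p = 0.490). Eif2b3, a subunit of eIF2B, had the lowest change of its list, -0.46 (limma adjusted p = 0.762).

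Of the kinase regulators 7 had a positive and 6 a negative change, with a range of -0.28 to 0.33, and 0 were called. Gcn1l1, the partner that couples GCN2 to stalled ribosomes, was at 4.08 and 4.03 TPM in Ctrl and 5.13 and 5.55 TPM in AZ20 (log2 change 0.33; limma adjusted p = 0.802). Hspa5, the chaperone BiP that holds PERK inactive, was at 287 and 291 TPM in Ctrl and 229 and 247 TPM in AZ20, lower in both pairs (log2 change -0.28; limma adjusted p = 0.685). Oma1, the mitochondrial protease upstream of HRI, had a change of 0.25, and Impact, which competes for GCN1, one of -0.21. The phosphatase partner Ppp1cb, a catalytic subunit of protein phosphatase 1, was at 165 and 195 TPM in Ctrl and 185 and 245 TPM in AZ20, while Ppp1ca stayed at 1.45 to 2.61 TPM. Actb and Smarcb1, also listed there, had changes of -0.29 and -0.19.

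Transcription factors that partner with ATF4 or CHOP, or belong to the other stress arms, were mostly below the filter, with 4 tested of 11. Xbp1, the factor spliced by the kinase IRE1, was at 28.8 and 34.1 TPM in Ctrl and 48.0 and 43.2 TPM in AZ20, above Ctrl in both libraries (log2 change 0.52; limma adjusted p = 0.490). Atf6 was at 1.05 to 2.36 TPM (log2 change -0.35), and Cebpg, a dimer partner of ATF4, at 12.6 to 18.3 TPM (log2 change 0.05). Nupr1 rested on 17 reads or fewer in each library (log2 change -0.84; limma adjusted p = 0.722). Cebpb was at 0 in every library and Ern1, which encodes IRE1, at no more than 0.230 TPM.

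**Figure D4:**
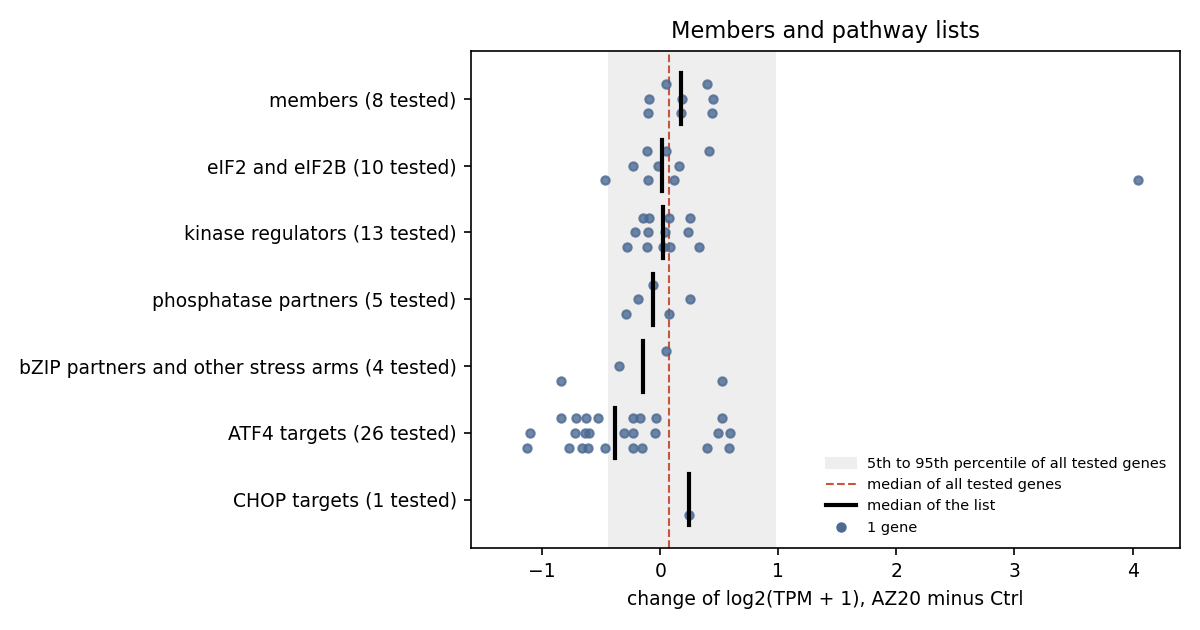
Change of log2(TPM + 1), AZ20 minus Ctrl, for the tested genes of each list, 1 point per gene, with the median of the list as a black bar, the 5th to 95th percentile of all tested genes (-0.43 to 0.97) in grey and their median as a dashed line. The ATF4 targets extend furthest to the left, with a median of -0.39, and the single point at 4.05 is Eif2s3y.

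Genes known as ATF4 targets were lower in AZ20 more often than higher, with 21 negative and 5 positive changes among the 26 tested of 38 and a median of -0.39 against 0.07 over all genes. The list was chosen with earlier results of these data known, so its counts and shares describe it and are no independent test. An unadjusted limma p under 0.05 with a negative change was reached by 8 of the 26, against 1.13% of all tested genes, and by 0 with a positive change. Of the 26, 1 was called lower, against 0.0485% of all tested genes. The AZ20 libraries lay below both Ctrl libraries for 15 of the 26, against 11.7% of all tested genes. The summed round spermatid markers, in the same pairs, went from 369 to 777 TPM and from 153 to 256 TPM, and their part in the lower levels of these targets was not tested. Slc3a2, the heavy chain shared by several amino acid transporters, was at 108 and 94.5 TPM in Ctrl and 44.0 and 47.5 TPM in AZ20 and fell by 1.12 ± 0.18 (SE) on the log2 scale (limma adjusted p = 0.0236). Its adjusted p was 0.0520 without the filter, 0.0787 without the variance trend, 0.194 without Ctrl replicate 1, 0.106 without Ctrl replicate 2, 0.346 without AZ20 replicate 1 and 0.274 without AZ20 replicate 2, with the same direction each time. Eif4ebp1, which encodes the translation repressor 4E-BP1, was at 9.40 and 8.84 TPM in Ctrl and 3.23 and 4.27 TPM in AZ20. Its change of -1.10 ± 0.26 (SE) was not called without the block (limma adjusted p = 0.126) and was called with the replicate number as a block (limma adjusted p = 0.0109).

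At the other end of that list, Gdf15, a stress-induced secreted protein, was at 1.74 and 1.76 TPM in Ctrl and 3.81 and 2.53 TPM in AZ20 (log2 change 0.58; limma adjusted p = 0.674). Sqstm1, an autophagy receptor, was at 3.67 and 11.8 TPM in Ctrl and 11.5 and 9.87 TPM in AZ20, so that its change of 0.59 (limma adjusted p = 0.803) rested on Ctrl replicate 1 and was -0.14 without it. The Atf4 transcript thus had a positive fitted change and most of its listed targets a negative one, while Atf4 itself did not pass the test. Of the 5 listed CHOP targets only Ero1l, an oxidase of the endoplasmic reticulum, was above the filter, at 2.51 and 1.63 TPM in Ctrl and 2.43 and 2.79 TPM in AZ20 (log2 change 0.25; limma adjusted p = 0.882).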

How the data were processed

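RNA-seq was analysed in 4 libraries of cultured pachytene spermatocytes, 2 Ctrl and 2 AZ20. Reads were trimmed by the authors (Trimmomatic 0.39) and mapped to GRCm38 (STAR 2.5.4b). Only unique alignments were kept, and these were counted on UCSC refGene (featureCounts 2.0.1). The values deposited by the authors are TPM per library. The kit does not mark strand. Each column sums to 1000000, and 92 lines without a symbol were left out.

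Log2(TPM + 1) was fitted with limma 3.58.1 (R 4.3.3) with a variance trend over the 10316 genes with a mean above 1 TPM in Ctrl or AZ20, and the fit was tested on simulated data. Whole reads were recovered from the deposited TPM through the gene length, which does not vary between libraries. This gave whole reads for the 16857 genes with any signal, up to a whole factor per gene that TPM does not show. The implied length was within 0.2% of the annotated one for 26.3% of the tested genes, so that factor was unchecked for the others. Among the members it was furthest off for Eif2ak1, at 2571 bases against 4325 annotated. It also differed for Eif2s1 (3152 against 3405), Eif2ak3 (4496 against 4841), Ddit3 (871 against 890) and Eif2ak2 (4326 against 4313). The reads of such genes, and the library totals and voom fit that use them, may be off. Tables were made in Python 3.11.15 (pandas 2.3.3, numpy 2.4.6).

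Same-numbered libraries were taken as pairs, which is an assumption. The methods state that the cells of each mouse were split between the conditions, but do not link replicate numbers to mice. Deviations from the group means correlated at 0.229 between libraries of the same number over 10316 genes. An alternative fit had the number as a block. Other alternatives were pseudocounts of 0.1 and 0.01, a filter at 5 TPM and none, quantile normalization, median scaling, no variance trend, no fold limit, voom on recovered reads and leaving out each library.

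The members and lists were chosen with earlier results of these data known. The text names the 10 members, the other eIF2 subunits, the called genes and the 2 highest and 2 lowest changes of each list, and the 3 genes nearest to Atf4. Named untested genes, Mars and the motifs were chosen after values were seen. Gene positions and promoters are RefSeq's (GRCm38.p6), and exons are from GENCODE M21. The limma p-values rest on the spread between 2 libraries a group, drawn toward a variance trend over all tested genes. The main fit left the replicate number out.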

Additional observations from a re-analysis of the deposited data

How the results depend on the processing

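The count of members called was 0 in both directions under every alternative. With the replicate number as a block, 424 of all tested genes were called higher against 235 without it, and 23 lower against 5, and in the pathway lists 2 were called lower against 1, as Eif4ebp1 was added; the block changed no other call among the named genes. All tested genes called lower numbered 1 without the filter and 1 with voom. The count of pathway genes called higher was 0 with pseudocounts of 0.1 and 0.01 and without the filter, and the count called lower was 0 without the filter and without the variance trend. Leaving out a library, which leaves 1 library in a group that is assumed to vary like the other, gave 0 to 200 genes called higher and 0 to 1 lower over all genes, 0 to 1 higher in the pathway lists and 0 lower. The adjusted p of Eif2s3y was 0.128 with a pseudocount of 0.01.

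Quantile normalization moved the median change of all genes from 0.07 to -0.07 and turned the sign of Eif2ak4 (-0.15), Ppp1r15b (-0.08), Oma1 (-0.04), Ppp1ca (-0.20), Cebpg (-0.12) and Ero1l (-0.02). Median scaling turned Ppp1r15b (-0.03) and Cebpg (-0.03). Leaving out 1 library at a time gave ranges that crossed or reached 0 for Eif2ak1 (-0.37 to 0.18), Eif2s1 (-0.21 to 0.00), Ppp1r15b (-0.15 to 0.24), Impact (-0.56 to 0.13), Oma1 (-0.02 to 0.52), Ppp1ca (-0.21 to 0.35), Smarcb1 (-0.43 to 0.05), Cebpg (-0.20 to 0.30) and Sqstm1 (-0.14 to 1.32). The cause was not tested. Of 406 alternative values, 372 kept direction and side of the threshold. Most of these belong to genes that were not called in the main fit, so that count says little about the calls. Every value that lost a call was of Eif2s3y or Slc3a2, the only named genes called in the main fit. Depth limits Eif2ak2, Eif2ak4 and Ppp1r15a, with 106 reads or fewer in each library, and leaves Eif2ak3 and Trib3 untestable.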
